A study of Mus musculus with 6 samples.

Results

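Microtubules are hollow filaments built from dimers of 1 alpha and 1 beta tubulin, and each of these proteins is encoded by several genes whose products are called isotypes. The isotypes differ mostly in the acidic tail at the end of the protein, which faces the outside of the filament and is read by motors and by modifying enzymes. In T cells microtubules carry the cytotoxic granules to the contact with a target cell, and in dividing cells they form the spindle. Cells also adjust tubulin mRNA to the amount of free tubulin: the nascent start of alpha and beta tubulins is recognised by the protein TTC5, and the mRNA being translated is then degraded.

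The genes described here are 10 tubulin isotypes, 4 alpha (Tuba1a, Tuba1b, Tuba1c and Tuba4a) and 6 beta (Tubb2a, Tubb2b, Tubb3, Tubb4b, Tubb5 and Tubb6), out of 16749 genes listed in at least 1 library. All 10 were found by symbol through their NCBI gene numbers, and all 10 were among the 10890 genes tested. They were chosen by symbol with measured values of these same libraries in view, namely FPKM, expected counts and each isotype's share of the tubulin counts in knockout and WT. Their levels, fold changes and calls are therefore a description and carry no p-value here.

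The libraries came from CD8+ T cells sorted from the tissue abbreviated iLN in C57BL/6 mice. The series title places all of them in tumor-bearing animals that had been given oxaliplatin, a platinum drug that crosslinks DNA. The 3 Id2 knockout libraries are from Cd4creId2f/f mice, and the 3 WT libraries are from Id2f/f mice, whose Id2 is floxed but which have no Cre. Cd4-Cre is active from the thymic stage at which T cells carry both CD4 and CD8, so it acts in both lineages. Presence of Cre and absence of Id2 go together in these libraries and cannot be told apart. Ages, the tumor and the number of animals behind a library are not given in the labels, so the spread between libraries of a group may be technical. Id2, which binds E proteins and keeps them off DNA, had 1.67, 2.64 and 2.12 FPKM in knockout replicates 1 to 3 and 370.98, 146.76 and 149.01 FPKM in WT replicates 1 to 3. FPKM is a read count divided by transcript length and library size.

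The libraries held 7699181 to 7990095 expected counts in the knockout group and 8307284 to 8495123 in the WT group. The markers of CD8 T cells were present throughout, with Cd8a at 196.14 to 231.77 FPKM in knockout and 199.92 to 221.29 FPKM in WT libraries. Across all genes, 1297 of 10890 passed an adjusted p of 0.05 by edgeR, 342 higher and 955 lower in the knockout. B cell markers varied between libraries of both groups: the summed FPKM of 10 such genes was 655, 2798 and 582 in knockout replicates 1 to 3 and 876, 2942 and 3432 in WT replicates 1 to 3. Of 12 proliferation markers all 12 were lower in the knockout, with a sum of 244, 330 and 233 FPKM in the knockout libraries and 783, 699 and 977 FPKM in the WT libraries. The sum of 6 dendritic cell markers was 3.63 to 6.73 FPKM in knockout and 23.6 to 26.6 FPKM in WT libraries. Of the 4 tested, Itgax, Batf3 and Zbtb46 passed as lower. Xcr1 did not pass, with means of 2.81 FPKM in knockout and 2.97 FPKM in WT. Flt3 and Siglech were too low to be tested. Flt3 had means of 0.187 FPKM in knockout and 0.257 FPKM in WT. Siglech went the other way, with 0.523 FPKM in knockout and 0.27 FPKM in WT. The sum of 5 NK cell markers was 29 to 74 FPKM in knockout and 566 to 1298 FPKM in WT libraries. Most of it was Gzma, which activated CD8 T cells also make, at 17.13 to 65.81 FPKM in knockout and 559.57 to 1288.67 FPKM in WT. Eomes did not pass and went the other way, with means of 8.8 FPKM in knockout and 6.02 FPKM in WT. Klra8 and Klrb1c were too low to be tested. Klra8 had means of 0.71 FPKM in knockout and 0.11 FPKM in WT, and Klrb1c 0.733 and 0.917 FPKM. Ncr1, which defines NK cells, was at 0 to 0.18 FPKM in knockout and listed at 0 in all WT libraries. The part of the dendritic cell list in the tubulin levels was not tested. In bulk samples, fewer cells of a type and less RNA per cell cannot be told apart.

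Of the 10 isotypes, 2 passed the threshold as higher in the knockout and 5 as lower, beside 3.14% and 8.77% of all genes tested (11.9% in either direction). Tubb2a and Tubb2b were the higher ones. Tuba1b, Tuba1c, Tubb3, Tubb4b and Tubb6 were the lower ones, and Tuba1a, Tuba4a and Tubb5 did not pass. The FPKM ranges of the groups did not overlap for 9 of the 10 isotypes, 7 of them lower and 2 higher in the knockout, beside 32.1% of all genes tested without overlap. Of these, 16.8% of all genes tested were lower and 15.3% higher. Tuba1a was the isotype with overlapping groups. The median log2 fold change of the 10 isotypes was -0.78, and that of all genes tested was 0.01.

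**Figure D1:**
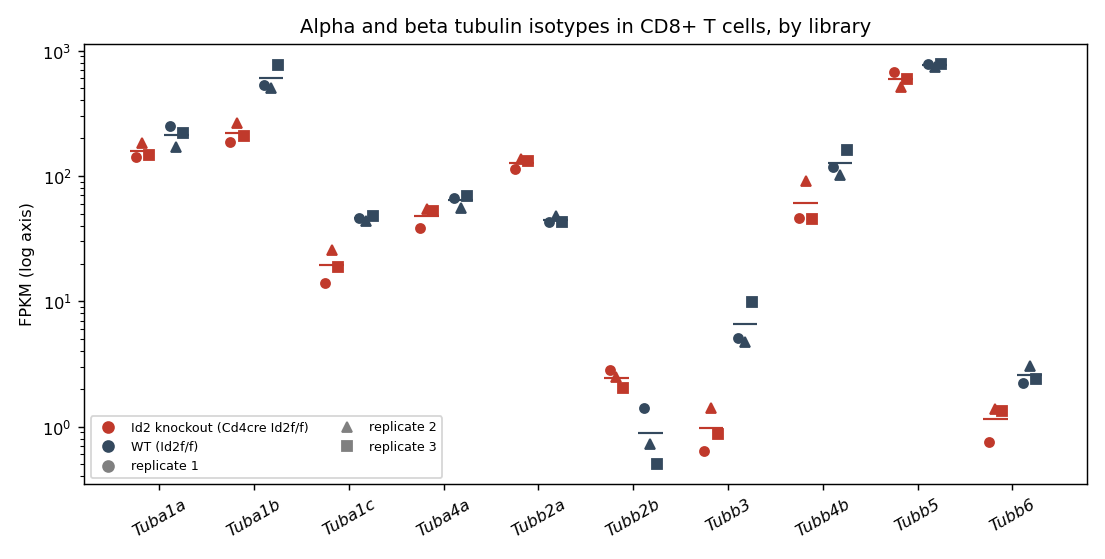
FPKM (log axis) of each tubulin isotype in the 3 Id2 knockout libraries (red, left) and the 3 WT libraries (dark, right); symbols mark the replicate and horizontal lines the group mean. Tubb2a and Tubb2b lie higher in all knockout libraries than in any WT library, Tuba1a overlaps, and the other isotypes lie lower.

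Tubb2a, a beta tubulin best known from brain but made in many tissues, was the abundant isotype that went up. It had 113.48, 136.45 and 131.14 FPKM in knockout replicates 1 to 3, against 42.86, 48.31 and 42.96 FPKM in WT replicates 1 to 3. The groups were far apart relative to their spread, at 127 ± 12 FPKM in knockout and 44.7 ± 3.12 FPKM in WT (SD, n = 3 each). This is a log2 fold change of 1.49 (SE 0.103), or 2.81-fold, on summed counts of 4858 in knockout and 1841 in WT. Tubb2a was also the isotype with the smallest relative spread within the knockout group, with a coefficient of variation of 9.47%. Beside the B cell markers, the WT library with few of them (replicate 1) and those with many (replicates 2 and 3) were within 42.86 to 48.31 FPKM. The knockout library with many (replicate 2) had 136.45 FPKM, beside 113.48 and 131.14 FPKM in those with few. The part of B cells in the Tubb2a levels was not tested beyond a fit with a covariate for B cell markers.

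Tubb2b lies beside Tubb2a on mouse chromosome 13 and is known from the developing brain. It was scarce, with 2.85, 2.5 and 2.03 FPKM in knockout and 1.42, 0.73 and 0.5 FPKM in WT libraries. All knockout libraries were above all WT libraries, but the counts behind these values were 43.87, 36.97 and 30.32 in knockout and 22.89, 11.95 and 7.91 in WT. Its log2 fold change was 1.44 (SE 0.4), close to that of Tubb2a with an SE about 4 times as large. It passed the filter on low values through the knockout libraries together with WT replicate 1. The call was lost in 7 of 13 alternative fits, among them each of those without a knockout library, without WT replicate 2 and without WT replicate 3.

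The 2 genes share much of their sequence (their reads had to be divided between them). On the mm10 assembly Tubb2a spans chr13:34074278-34078008 and Tubb2b chr13:34127008-34130354, with 48999 bases between them. Their coding sequences were identical at 1291 of 1338 aligned bases (96.5%). Of all windows of 50 bases along the Tubb2a transcript, 45.6% also occurred in Tubb2b, and 33.4% of the Tubb2b windows occurred in Tubb2a. Reads from these windows were divided by RSEM's estimate, and the expected counts of both genes were not whole numbers in any of the 6 libraries. Those of Tubb5 were not whole in any of the 6 either, with 0.1% of its windows in another coding gene. A count that is not whole thus does not by itself show sharing within this pair. The last 60 coding bases before the stop encode the tail where isotypes usually differ. They are shown for both genes from the GENCODE transcripts, with the 3 bases that differ in capitals. All 3 leave the encoded amino acids the same, so the 2 genes do not differ in this stretch of protein.
Tubb2a: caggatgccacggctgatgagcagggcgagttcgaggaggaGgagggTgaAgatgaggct
Tubb2b: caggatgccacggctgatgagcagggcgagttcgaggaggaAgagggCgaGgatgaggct
When the counts of both genes were summed, they were 1525, 1753 and 1691 in knockout libraries and 610, 683 and 591 in WT libraries. The log2 fold change of the sum was 1.49 (SE 0.102), and the sum does not depend on how reads were divided between the pair.

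The most abundant beta tubulin was Tubb5, the isotype found in nearly all tissues (human TUBB), at chr17:35833920-35838301. It had 676.9, 516.36 and 596.52 FPKM in knockout replicates 1 to 3 and 781.87, 739.69 and 781.47 FPKM in WT replicates 1 to 3. All knockout libraries were below the WT libraries, which differed little among themselves (coefficient of variation 3.16%, against 13.5% in knockout). The log2 fold change was -0.38 (SE 0.125) and did not pass the threshold. It did pass in 4 of 15 alternative fits: DESeq2, with the replicate number as a block, with a covariate for B cell markers and without knockout replicate 1. Knockout replicate 2 was the lowest of all libraries for Tubb5, and with the B cell covariate the log2 fold change was -0.51.

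Tubb4b, another widely expressed beta tubulin, had 46.38, 90.33 and 45.7 FPKM in knockout and 118.78, 101.43 and 161.86 FPKM in WT libraries. The gene lies at chr2:25222158-25224702, and 50.9% of its windows of 50 bases also occurred in transcripts of other genes, none of them coding for protein. Its expected counts were whole numbers in all 6 libraries. Knockout replicate 2 stood well above the other knockout libraries and only a little below the lowest WT library. The log2 fold change was -1.09 (SE 0.252). The call ended without knockout replicate 1 (-0.93), without knockout replicate 3 (-0.92) or without WT replicate 3 (-0.89). Leaving out knockout replicate 2 gave -1.46. The 2 knockout libraries with low Tubb4b also had the lower sums of proliferation and of B cell markers, and the part of either in this spread was not tested.

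Tubb3, the beta tubulin used as a marker of neurons, had the largest fold change of the isotypes and a low level. It had 0.64, 1.41 and 0.88 FPKM in knockout and 5.09, 4.69 and 9.94 FPKM in WT libraries, from 9, 19 and 12.01 counts in knockout and 75, 69.99 and 145.01 counts in WT. Its log2 fold change was -2.76 (SE 0.394), which is 6.77-fold lower in the knockout, and -1.89 by limma on log2(FPKM + 1), where the added 1 shrinks changes of low genes. Every knockout library was far below every WT library, and WT replicate 3 held about as much as the other WT libraries together. Other neural transcripts were near 0 in both groups: Snap25, the most abundant of 6 neuron and glia markers, reached 0.7 FPKM in knockout and 1.17 FPKM in WT libraries. Tubb3 passed the filter on low values through the WT libraries and knockout replicate 2. Tubb6, a further minor beta tubulin, had 0.76, 1.37 and 1.34 FPKM in knockout and 2.24, 3.06 and 2.4 FPKM in WT libraries (log2 fold change -1.16, SE 0.318). With 49 counts in knockout and 117 in WT, its call was lost in 10 of 14 alternative fits, including all of those without 1 library.

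Among the alpha tubulins, the change lay mainly in Tuba1b, the general alpha tubulin of most cells and the most abundant one in both groups. It had 185.46, 265.32 and 207.66 FPKM in knockout libraries, against 535.04, 505.91 and 766.47 FPKM in WT libraries. The lowest WT library held more than any knockout library by a wide margin. The means were 219 ± 41.2 FPKM in knockout and 602 ± 143 FPKM in WT (SD, n = 3 each), with a log2 fold change of -1.47 (SE 0.173), or 2.78-fold lower. Tuba1c, its less abundant relative, had 14.04, 25.64 and 18.68 FPKM in knockout and 45.99, 44.05 and 48.18 FPKM in WT libraries. Tuba1c had a log2 fold change of -1.26 (SE 0.176), and the WT libraries were nearly alike (coefficient of variation 4.48%) while the knockout libraries were not (30%). Both genes kept their call in all 14 alternative fits that measured them singly.

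Tuba1a, known as the main alpha tubulin of young neurons, moved less. It had 140.53, 183.08 and 147.21 FPKM in knockout and 251.57, 168.63 and 218.87 FPKM in WT libraries. The highest knockout library (replicate 2) exceeded the lowest WT library (replicate 2). Its log2 fold change was -0.46 (SE 0.162) and did not pass. It was -0.62 and passed without WT replicate 2, and it passed with DESeq2. Tuba4a, whose gene does not encode the final tyrosine of other alpha tubulins, had 38.42, 53.99 and 52.05 FPKM in knockout and 67.1, 55.63 and 69.68 FPKM in WT libraries. Its log2 fold change was -0.43 (SE 0.144), and it did not pass in any of 15 alternative fits.

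Tuba1a, Tuba1b and Tuba1c lie together on chromosome 15, and their near-identity limits how far they can be separated. Tuba1b spans chr15:98931429-98934390, Tuba1a chr15:98949847-98953501 and Tuba1c chr15:99029891-99038105, with 15456 bases between Tuba1b and Tuba1a and 76389 between Tuba1a and Tuba1c. Coding identity was 98.3% between Tuba1a and Tuba1b and 98.4% between Tuba1b and Tuba1c, against 85.6% between Tuba1b and Tuba4a. Of the windows of 50 bases, 64.5% in Tuba1a, 65.5% in Tuba1b and 59.8% in Tuba1c also occurred in another coding gene. None of the windows of Tuba4a did (0%), and its expected counts were whole in all 6 libraries. The summed counts of Tuba1a, Tuba1b and Tuba1c were 4588, 6189 and 4905 in knockout and 11940, 10517 and 14788 in WT libraries. The log2 fold change of the sum was -1.16 (SE 0.156) and passed the threshold. The size of each gene's own change rests on RSEM's division of shared reads.

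The order of the isotypes by level differed between the groups. In knockout libraries the order of mean FPKM was Tubb5 (597), Tuba1b (219), Tuba1a (157), Tubb2a (127), Tubb4b (60.8), Tuba4a (48.2), Tuba1c (19.5), Tubb2b (2.46), Tubb6 (1.16) and Tubb3 (0.977). In WT libraries it was Tubb5 (768), Tuba1b (602), Tuba1a (213), Tubb4b (127), Tuba4a (64.1), Tuba1c (46.1), Tubb2a (44.7), Tubb3 (6.57), Tubb6 (2.57) and Tubb2b (0.883). Tubb2a thus stood at place 4 in the knockout and at place 7 in the WT. Neighbours whose ranges overlapped within a group were Tubb4b with Tuba4a and Tubb6 with Tubb3 in knockout, and Tubb5 with Tuba1b and Tuba1c with Tubb2a in WT.

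The summed level of the 10 isotypes was lower in the knockout, and the alpha genes accounted for most of the difference. The sum was 1219, 1276 and 1203 FPKM in knockout libraries and 1852, 1672 and 2102 FPKM in WT libraries, and the isotypes took 0.267 ± 0.00489% of all counts in knockout and 0.396 ± 0.0389% in WT (SD, n = 3 each). Alpha tubulins summed to 378, 528 and 426 FPKM in knockout and 900, 774 and 1103 FPKM in WT libraries. Beta tubulins summed to 841, 748 and 778 FPKM in knockout and 952, 898 and 999 FPKM in WT libraries. The ratio of alpha to beta FPKM was 0.45, 0.706 and 0.547 in knockout and 0.945, 0.862 and 1.1 in WT libraries, without overlap. This ratio of transcripts says nothing of protein, where the dimer fixes the proportion.

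**Figure D2:**
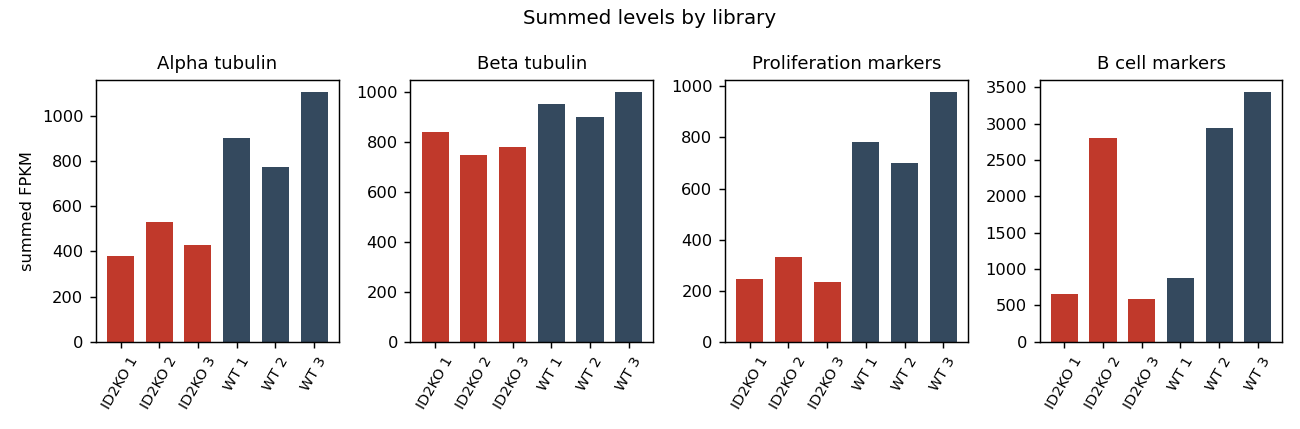
Summed FPKM of the 4 alpha tubulins, the 6 beta tubulins, 12 proliferation markers and 10 B cell markers in each library (red, Id2 knockout; dark, WT; each panel has its own axis from 0). Alpha tubulin lies between 378 and 528 FPKM in knockout and between 774 and 1103 FPKM in WT, beta tubulin differs less, and within each group the library with the most alpha tubulin also has the most proliferation and B cell marker FPKM.

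Within each group the alpha sum and the proliferation markers had the same top library. Knockout replicate 2 had the highest alpha sum (528 FPKM), the highest proliferation sum (330 FPKM) and the highest B cell sum (2798 FPKM) of its group. WT replicate 3 had the highest of each in its group, at 1103, 977 and 3432 FPKM. The highest knockout level was in replicate 2 for 8 of the 10 isotypes, the exceptions being Tubb5 and Tubb2b. WT replicate 1, with a B cell sum of 876 FPKM, had an alpha sum of 900 FPKM, above the 774 FPKM of WT replicate 2 with a B cell sum of 2942 FPKM. The part of dividing cells or B cells in the alpha levels was not tested beyond the fit with a B cell covariate. In that fit 5 isotypes were lower (Tuba1b, Tuba1c, Tubb3, Tubb4b and Tubb5) and 1, Tubb2a, was higher. Tubb6 (-1.06) and Tubb2b (1.24) lost their call there.

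Each isotype's share of the tubulin counts was also among the values by which the genes were chosen. Tubb2a took 6.8, 8.35 and 8.15% of all tubulin counts in knockout libraries and 1.78, 2.2 and 1.61% in WT libraries. Tuba1b took 11.9, 17.3 and 13.8% in knockout and 23.8, 24.7 and 30.7% in WT libraries. For both genes the groups were well separated. Tubb5 took 66.1, 51.5 and 60.4% in knockout and 53, 55 and 47.7% in WT libraries, which overlapped, with the lowest knockout share again in replicate 2. The difference in this share was 7.42 percentage points, 4.03 without knockout replicate 1 and 11.4 without knockout replicate 2. Beta genes together held 71 ± 5.19% of tubulin counts in knockout and 59.3 ± 3.24% in WT (SD, n = 3 each).

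Within the alpha and the beta genes taken apart, 2 shifts stood out. Of the beta counts, Tubb2a made up 8.96, 12.7 and 11.4% in knockout and 2.97, 3.55 and 2.89% in WT libraries. Tubb5 made up 87.1, 78.5 and 84.3% in knockout and 88.3, 88.5 and 85.6% in WT libraries, which overlapped. Its means were 83.3 ± 4.39% in knockout and 87.5 ± 1.65% in WT (SD, n = 3 each). Of the alpha counts, Tuba1b made up 49.3, 50.4 and 48.6% in knockout and 59.6, 65.1 and 69.3% in WT libraries. Tuba1a made up 33.9, 31.6 and 31.3% in knockout and 25.5, 19.7 and 18% in WT libraries, and Tuba4a 12.6, 12.5 and 15.1% in knockout and 9.18, 8.81 and 7.71% in WT libraries. The standard deviation of these shares was 0.876 percentage points in knockout and 4.9 in WT for Tuba1b, and 1.44 and 3.91 for Tuba1a, while for Tuba4a it was larger in the knockout, at 1.47 against 0.763 in WT. Tuba1a and Tuba4a thus held a larger part of a smaller alpha total. A larger share is not a higher level here, since the FPKM of neither gene was higher in the knockout.

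**Figure D3:**
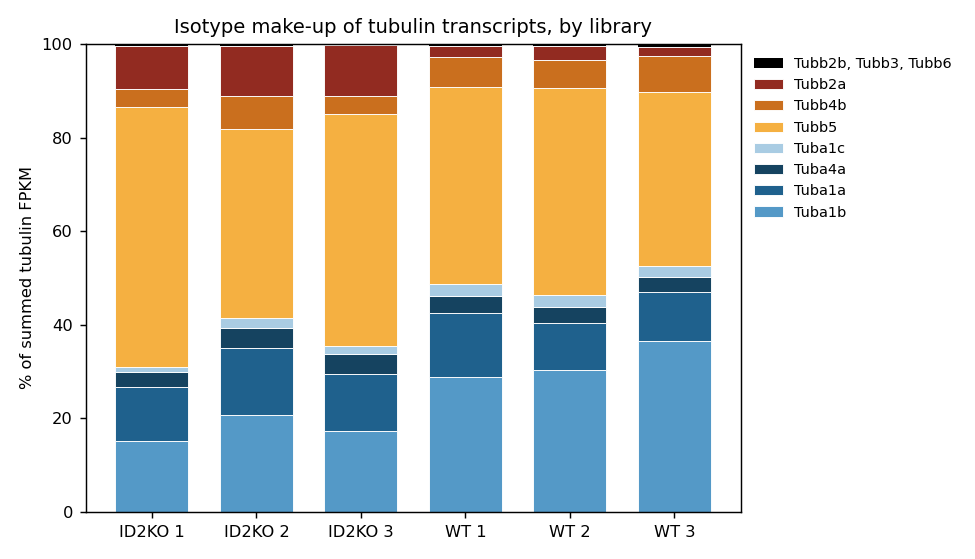
Percentage of the summed tubulin FPKM taken by each isotype in the 3 Id2 knockout libraries (left) and the 3 WT libraries (right); blue segments are alpha and the others beta tubulins, and the thin black segment holds Tubb2b, Tubb3 and Tubb6. Tubb2a takes 9.31 to 10.9% in knockout and 2.04 to 2.89% in WT libraries, and Tuba1b takes 15.2 to 20.8% in knockout and 28.9 to 36.5% in WT libraries.

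Of 6 further alpha and beta isotypes, Tuba3b and Tubb1 were not listed in any library and the others were scarce. Tuba3a, an alpha tubulin of testis, had 2.45, 1.86 and 2.27 FPKM in knockout and 1.48, 0.69 and 0.71 FPKM in WT libraries, and did not pass (log2 fold change 1.17, edgeR adjusted p = 0.0842). Tubb4a, a beta tubulin of brain, had 0.11 to 0.12 FPKM in knockout and 0.31 to 1.11 FPKM in WT libraries, from 6 and 35 summed counts, and was below the filter. Tuba8 reached 0.26 FPKM in knockout and 0.24 FPKM in WT, and Tubal3 reached 1.05 and 0.78 FPKM, both also below the filter.

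The starts of the coding sequences are shown because they encode the stretch that TTC5 reads during autoregulation. The first 30 coding bases of 6 isotypes were taken from the GENCODE transcripts, with the first 4 codons in capitals.
Tubb2a: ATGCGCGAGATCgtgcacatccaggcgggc
Tubb5: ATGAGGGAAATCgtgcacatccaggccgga
Tubb4b: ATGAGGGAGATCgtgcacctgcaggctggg
Tubb3: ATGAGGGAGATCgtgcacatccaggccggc
Tuba1b: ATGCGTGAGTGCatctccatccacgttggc
Tuba4a: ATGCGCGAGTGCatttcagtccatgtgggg
Ttc5 had 43.11, 46.41 and 41.3 FPKM in knockout and 36.6, 45.63 and 45.23 FPKM in WT libraries, with overlapping groups (log2 fold change 0.03, SE 0.104, edgeR adjusted p = 0.872). Of 17 genes for tubulin modification and autoregulation 11 were tested, and 0 passed by edgeR, 0 by DESeq2 and 0 by limma, beside 11.9% of all genes tested by edgeR, at a median log2 fold change of -0.12. At an unadjusted edgeR p under 0.05 the count was also 0, beside 27.6% of all genes tested (16.1% lower and 11.5% higher). This list includes Ttll enzymes, which add glutamate chains, Hdac6 and Sirt2, which remove acetyl groups, and Svbp, a partner of the enzymes that remove the final tyrosine. This list and the microtubule lists that follow were chosen with earlier results of these data known. Their counts and p-values come from the fit across all genes and are a description, not independent support.

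Of 21 tested genes for chaperones and cofactors that fold tubulin, 3 were lower and 0 higher by edgeR, beside 8.77% lower and 3.14% higher of all genes tested, at a median log2 fold change of -0.21. At an unadjusted edgeR p under 0.05, 9 were lower and 0 higher, beside 16.1% lower and 11.5% higher of all genes tested. Tcp1, a subunit of the ring-shaped chaperonin that folds actin and tubulin, had 89.02, 97.39 and 86.26 FPKM in knockout and 119.77, 121.89 and 128.99 FPKM in WT libraries (log2 fold change -0.46, edgeR adjusted p = 0.0104). Tbcb, a cofactor that acts on alpha tubulin, had 28.06, 31.15 and 29.26 FPKM in knockout and 41.75, 40.79 and 48.68 FPKM in WT libraries (-0.58, edgeR adjusted p = 0.011). Pfdn6, a subunit of prefoldin, which hands tubulin to the chaperonin, was the third (-0.41, edgeR adjusted p = 0.0302). Without knockout replicate 3 none of these 3 passed, and the call of Pfdn6 also ended without knockout replicate 1 or any WT library, and that of Tbcb without WT replicate 3.

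Of 20 tested genes for microtubule nucleation, 2 were lower and 0 higher by edgeR, beside 8.77% lower of all genes tested, at a median of -0.21. At an unadjusted edgeR p under 0.05, 8 were lower and 0 higher, beside 16.1% lower and 11.5% higher of all genes tested. Tubg1, the gamma tubulin that templates new microtubules at the centrosome, had 17.89, 23.38 and 18.13 FPKM in knockout and 37.14, 36.37 and 54.13 FPKM in WT libraries (log2 fold change -1.12, edgeR adjusted p = 0.00247). Haus4, a subunit of the augmin complex, which starts branches from existing spindle microtubules, had 17.16, 17.4 and 15.08 FPKM in knockout and 26.59, 28.54 and 29.13 FPKM in WT libraries (-0.78, edgeR adjusted p = 0.00238). For both genes all knockout libraries lay below all WT libraries, with WT replicate 3 the highest.

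Of 23 tested genes for microtubule binding, dynamics and severing, 7 were lower and 1 higher by edgeR, beside 8.77% lower and 3.14% higher of all genes tested, at a median of -0.12. An unadjusted edgeR p under 0.05 was reached by 8 lower genes and 1 higher gene, beside 16.1% lower and 11.5% higher of all genes tested. These counts are a description, since the list was chosen with earlier results of these data known. Stmn1, which encodes stathmin, a protein that binds free tubulin dimers, had 53.77, 75.65 and 55.54 FPKM in knockout and 260.39, 242.23 and 328.27 FPKM in WT libraries (log2 fold change -2.19, edgeR adjusted p = 8.47e-05). Fignl1, a relative of the severing enzyme fidgetin that is also known from DNA repair, and Tpx2, a spindle assembly factor, fell too (-2.61 and -2.97, edgeR adjusted p = 0.000185 and 0.000283). The others that fell were Kif2c, Prc1, Tacc3 and Ckap5, all known from the mitotic spindle, and these were named after their values were seen. Map7, which recruits the motor kinesin-1 to microtubules, was the gene that rose, with 6.24, 7.27 and 5.05 FPKM in knockout and 3.27, 3.28 and 2.54 FPKM in WT libraries (1.01, edgeR adjusted p = 0.00781).

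**Figure D4:**
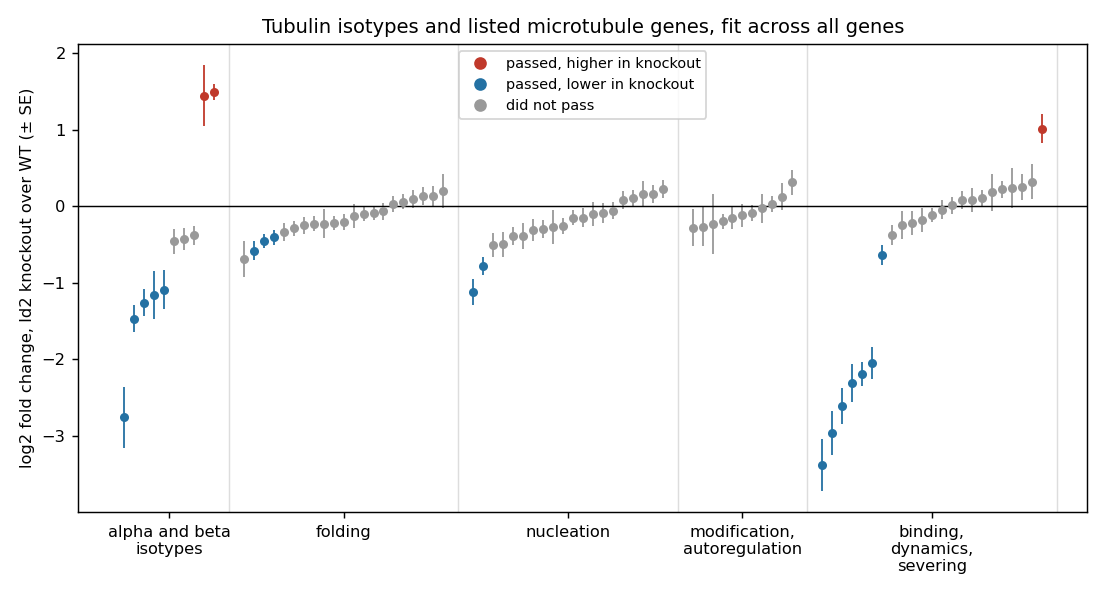
Log2 fold change (Id2 knockout over WT, ± SE) of each tested tubulin isotype and of each tested gene of the 4 microtubule lists, ordered by value within a list; red and blue mark genes past an edgeR adjusted p of 0.05 as higher or lower. The isotypes spread from -2.76 to 1.49, and the binding, dynamics and severing genes from -3.38 to 1.01. The folding, nucleation and modification genes spread less, with medians of -0.21, -0.21 and -0.12.

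The genes whose profile over the 6 libraries was most like that of Tubb2a were Klra23, Klra13-ps and Slc6a19, with root mean square differences of 0.123, 0.135 and 0.155 between centred log2(FPKM + 1) values. Klra23, of the Ly49 receptor family, had 5.55, 8.17 and 7.38 FPKM in knockout and 1.8, 2.5 and 2.28 FPKM in WT libraries. The genes most like Tubb3, the isotype with the largest fall, were Kif15, Tacc3 and Lig1, at differences of 0.085, 0.136 and 0.139. Kif15, a spindle motor, had 0.72, 1.73 and 0.95 FPKM in knockout and 5.63, 5.94 and 10.33 FPKM in WT libraries, with knockout replicate 2 and WT replicate 3 the highest of their groups, as for Tubb3. This likeness is over 6 libraries of 2 groups and is a description.

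The stretches of 250 bases before the gene start were read for 8 of the 10 isotypes from the RefSeq table of the mm10 assembly (GRCm38.p6). Motifs were searched on both strands: CANNTG, the E-box that E proteins and other helix-loop-helix factors bind; CAGGTG, a form of it and so always also a CANNTG match; CCAAT, which NF-Y binds; TATAAA; and TTTGAA, found in promoters of genes of late cell cycle. CANNTG occurred in 7 of the 8 stretches, Tubb3 being without it, and in 66.2% of all 32851 promoter stretches. CAGGTG occurred in Tubb2a, 216 bases before the start, and in Tuba4a, 134 bases before the start, and in 17.2% of all stretches. TATAAA occurred only in Tubb2a among the 8, 29 bases before the start, and in 12.4% of all stretches. CCAAT occurred 5 times in Tubb4b, between 221 and 19 bases before the start. It also occurred 2 times in Tubb5 and 1 time each in Tuba1a, Tuba1c and Tubb3. Tuba1b, Tuba4a and Tubb2a were without it. Of all stretches, 33.8% held it at least 1 time and 0.21% at least 5 times. TTTGAA occurred in Tubb4b alone of the 8, overlapping its CANNTG match, and in 16% of all stretches. The 2 stretches are shown because these genes moved in opposite directions; both are on the minus strand and printed in the direction of transcription, at chr13:34078009-34078258 and chr2:25224703-25224952, with CAGGTG and TATAAA in capitals in Tubb2a and CCAAT in capitals in Tubb4b.
Tubb2a: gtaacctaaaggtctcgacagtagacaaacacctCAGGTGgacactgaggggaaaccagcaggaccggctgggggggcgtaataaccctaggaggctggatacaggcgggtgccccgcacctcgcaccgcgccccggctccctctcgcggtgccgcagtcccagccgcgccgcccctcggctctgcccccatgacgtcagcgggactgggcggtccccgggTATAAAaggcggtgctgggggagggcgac
Tubb4b: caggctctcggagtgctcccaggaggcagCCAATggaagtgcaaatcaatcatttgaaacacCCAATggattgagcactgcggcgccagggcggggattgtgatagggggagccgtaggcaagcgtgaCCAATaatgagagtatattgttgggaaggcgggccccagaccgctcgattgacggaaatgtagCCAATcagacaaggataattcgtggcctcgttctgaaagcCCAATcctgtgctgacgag
A match is a run of letters and not a shown binding site, and no factor's binding was measured in these libraries.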

How the data were processed

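Per the labels' protocols, RNA of sorted CD8+ T cells went into standard Illumina libraries. RSEM, Bowtie2, CASAVA and mm10 are the tools and build listed, per the submitters' processing notes; versions and the use of strand are not given in the sources used here. The deposited tables give, per the file headers, an expected count and an FPKM value for each NCBI gene number. Genes missing from a library were taken as 0. Of 16749 gene numbers, 42 had no symbol in the RefSeq table.

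Expected counts were rounded and tested, 3 knockout against 3 WT libraries, in R 4.3.3 by edgeR 4.0.16 (glmQLFTest, a quasi-likelihood test, TMM scaling, two-sided, Benjamini-Hochberg adjustment, threshold 0.05). The 10890 genes with at least 1 FPKM in at least 3 libraries entered, and 5859 did not. The standard error is the log2 fold change divided by the square root of F. The test was checked on simulated data. Libraries of a group were not the same library sequenced again (their counts gave a chi-square per degree of freedom between 5.19 and 16.35). This does not tell whether they came from separate animals. Replicate numbers are not known to pair samples.

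The isotypes and lists were chosen with earlier results of these data known. Named genes were every isotype, and in each list up to 3 genes per direction with the smallest p past the threshold, or the most abundant gene where none passed. For the isotypes with the largest rise and fall and at least 5 FPKM in the higher group, the 3 genes most alike were named. Unnamed gene models and the gene segments of T cell receptors and immunoglobulins were left out. Alternatives were DESeq2 1.42.0, its size factors, limma 3.58.1 on log2(FPKM + 1) or log2(FPKM + 0.1), no filter, a minimum of 5 FPKM, a replicate block, a B cell covariate, near-identical genes summed and each library left out. Coding sequences are the longest open reading frames of GENCODE M21 transcripts, aligned with Biopython 1.88. Figures were drawn with matplotlib 3.10.9. Part of the sequence comparison of the alpha tubulin genes is not reported here.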

Additional observations from a re-analysis of the deposited data

How the results depend on the processing

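The number of genes past the threshold across all genes was 1297, between 601 and 1562 with 1 library left out; it was 601 without knockout replicate 3 and 685 without WT replicate 3. The number of isotypes past the threshold was 7 of 10. It was 5 of 7, 1 higher and 4 lower, with near-identical genes summed. That fit takes Tubb2a and Tubb2b as 1 sum and Tuba1a, Tuba1b and Tuba1c as 1 sum. The number was lower in some other alternatives. It was 4 of 7 with a minimum of 5 FPKM, which leaves out Tubb2b, Tubb3 and Tubb6, and 4 to 6 with 1 library left out, with 4 without knockout replicate 3 and 4 without WT replicate 3. Tubb2a, Tuba1b, Tuba1c and Tubb3 kept direction and call in each of the alternatives that measured them, and no isotype's log2 fold change changed sign in any of them. The number of folding genes past the threshold was 0 to 3 with 1 library left out (3 in all libraries), that of nucleation genes 2 to 3 (2), with 4 by DESeq2, that of binding, dynamics and severing genes 7 to 8 (8), and that of modification genes 0 to 0 by edgeR. The cause was not tested. The log2 fold change of Ttc5, near 0, changed sign without knockout replicate 2 (-0.000519) and without WT replicate 1 (-0.03), and was up to 0.08 with 1 library left out and 0.12 with the B cell covariate. The beta share differed by 11.7 percentage points, between 9.3 and 14.5 with 1 library left out. The share of Tuba1a changed sign without knockout replicate 2 (-0.0018 percentage points, 0.779 in all libraries, up to 1.6 without WT replicate 1). The share of Tubb5 was 7.42 points higher of all tubulin counts but -4.16 points of beta counts, since the alpha counts are left out of the second.

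With the replicate number as a block, 1183 genes and 7 isotypes passed. Tubb5 passed there (-0.39) and Tubb6 did not (-1.17), and the folding gene Pfdn6 did not pass with the block (-0.41) or with the B cell covariate (-0.4). Same-numbered libraries deviated from their group means with correlations of 0.12, 0.07 and -0.03, so the numbers are not shown to pair samples. Depth limits Tubb2b, Tubb3 and Tubb6, which rest on 111, 40 and 49 summed counts in knockout and 43, 290 and 117 in WT.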
